A study of Mus musculus with 6 samples.

Results

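The miR-181 family of the mouse consists of miR-181a, miR-181b, miR-181c and miR-181d, microRNAs (miRNAs) with a common seed. Its members were taken by name, with every mature arm and gene copy. They made up 10 of the 1974 mature miRNA rows and 6 of the 1234 hairpin rows of the count table. miRNAs had been counted in cardiomyocytes, the contracting cells of the heart, from hearts of C57BL/6 mice. The libraries fell into 4 groups. Adult mice without the long non-coding RNA lncSync (genotype LncSync-/-, here KO) gave 2 libraries and adult wild-type (WT) mice gave 2. Embryos at e13.5 (embryonic day) gave 1 KO library and 1 WT library. The labels state neither the age of the adults, nor the sex, nor how the allele was made or the cells were isolated. They also do not say whether replicates came from separate animals or whether embryos were pooled. The p-values below therefore rest on the spread among libraries, and that spread may be technical.

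An miRNA hairpin is cut into a 5p and a 3p arm, one of which is usually loaded into an Argonaute protein and guides it to messenger RNAs that match its seed, the bases near its 5′ end. The 5p arms are the guide strands of the miR-181 family in most tissues studied. miR-181a is known for its high level in the thymus, where it raises the sensitivity of T cells to antigen, miR-181b for dampening NF-kB signalling in endothelial cells, and miR-181c for its presence in mitochondria of rat heart cells, where it acts on the transcript of a cytochrome c oxidase subunit.

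The mature sequences show how close the members are, which bears on both their targets and their counting. All 10 arms were matched by name to RefSeq entries on GRCm38.p6, and capitals mark the seed, bases 2 to 8. The 4 guide arms are given first.
miR-181a-5p: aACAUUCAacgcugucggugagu
miR-181b-5p: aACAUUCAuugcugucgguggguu
miR-181c-5p: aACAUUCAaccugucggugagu
miR-181d-5p: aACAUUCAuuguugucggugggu
The 6 arms of the other strand follow.
miR-181a-1-3p: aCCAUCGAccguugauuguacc
miR-181a-2-3p: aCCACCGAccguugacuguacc
miR-181b-1-3p: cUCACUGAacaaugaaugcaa
miR-181b-2-3p: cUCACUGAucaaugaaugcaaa
miR-181c-3p: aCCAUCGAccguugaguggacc
miR-181d-3p: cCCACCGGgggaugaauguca
The seed ACAUUCA was shared by all 4 of the 5p arms and by 0 other entries among the 1679 mature mouse miRNAs searched. The 3p arms held 4 different seeds, with miR-181a-1-3p and miR-181c-3p sharing CCAUCGA and the pair of miR-181b 3p arms sharing UCACUGA. By edit distance, miR-181a-5p and miR-181c-5p differed by 1 base, miR-181b-5p and miR-181d-5p by 2 bases, and the remaining 5p pairs by 4 or 5 bases. The sources used here do not say how reads that match several members were assigned, so the split between such near copies is uncertain.

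The hairpins lie in 3 pairs (GRCm38). Mir181a-1 and Mir181b-1 occupy chr1:137966455-137966718 on the plus strand with 97 bases between them, inside an intron of the non-coding gene Gm4258. In that pair, Mir181b-1 also falls in an exon of the lincRNA A430106G13Rik, and Mir181a-1 falls partly in an exon of it. Mir181a-2 and Mir181b-2 occupy chr2:38852735-38853918 on the plus strand with 1019 bases between them, opposite to an intron of the nuclear receptor gene Nr6a1. Mir181c and Mir181d occupy chr8:84178716-84178961 on the minus strand with 85 bases between them, in an annotated intron of Nanos3. Both copies of miR-181a and of miR-181b give the same 5p sequence, so the chromosome 1 and chromosome 2 copies can be told apart only by their 3p arms.

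Mature counts totalled 14347091 to 17933518 in the adult libraries. They totalled 2671957 in the e13.5 KO library and 8944552 in the e13.5 WT library. The e13.5 KO library stands apart in depth and in its TMM (trimmed mean of M values) scaling factor, which was 2.17 against 0.57 to 1.24 in the other 5 libraries, so stage results are also given without it. A miRNA table does not measure the deleted long RNA, so it holds no direct check of the genotype labels. The labelled genotypes did differ at both stages in miRNAs outside the family. After TMM scaling the log2 fold (KO over WT) of miR-322-3p was -15.0 in adults and -12.5 at e13.5. It was -14.5 and -12.0 for miR-351-5p, and -11.0 and -8.42 for miR-503-3p. The cause of these differences was not tested. Cardiac muscle miRNAs (13 mature rows of miR-1a, miR-133, miR-208 and miR-499) took 28.2% to 39.5% of adult counts and 9.86% to 14.6% of e13.5 counts. Most of the e13.5 sum was miR-1a-3p, at 94848 CPM in KO and 139959 CPM in WT, within its adult range of 81490 to 256336 CPM. miR-133a-3p was at 121551 to 182883 CPM in adults, 1479 CPM in e13.5 KO and 1925 CPM in e13.5 WT. Of the 10 cardiac arms tested by stage, 1 was called higher at e13.5 and 8 higher in adults. Smooth muscle and fibroblast miRNAs (8 rows of miR-143, miR-145a, miR-199a and miR-214) took 7.48% to 11.8% of adult counts and 21.5% and 35.5% of e13.5 counts. Nearly all of that second sum was miR-143-3p, at 65759 to 110487 CPM in adults, 210707 CPM in e13.5 KO and 349750 CPM in e13.5 WT. miR-145a-5p ran the other way, at 3043 to 5645 CPM in adults, 748 CPM in e13.5 KO and 1125 CPM in e13.5 WT. Of the 8 smooth muscle and fibroblast arms tested by stage, 0 were called higher at e13.5 and 2 higher in adults. The shares over all miRNAs tested were 29.3% and 28.4%. The libraries labelled as cardiomyocytes thus held both sets of markers at both stages.

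The family was more abundant in adult than in embryonic cardiomyocytes. All arms together took 1.19% and 0.585% of mature counts in adult KO, 0.602% and 0.770% in adult WT, 0.262% in e13.5 KO and 0.197% in e13.5 WT. Every adult library thus held a larger share than either e13.5 library, and the adult mean, in CPM (counts scaled to the mature total of each library), was 3.42 times that at e13.5, or 7.06 times with TMM-scaled CPM. The summed 5p arms were 3.72-fold higher in adults (7.59-fold with TMM scaling), at 7566 ± 2751 CPM in adults (SD, n = 4) and 2034 ± 285 CPM at e13.5 (SD, n = 2). The summed 3p arms were at 294 ± 59.0 CPM in adults (SD, n = 4) and 263 ± 172 CPM at e13.5 (SD, n = 2), a difference smaller than the spread between libraries on this scale. With TMM scaling they did not overlap, at 371 ± 19.1 CPM in adults (SD, n = 4) and 146 ± 45.1 CPM at e13.5 (SD, n = 2). In these bulk samples, fewer cells of a type and less RNA per cell cannot be told apart.

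Among the guide arms, miR-181a-5p was the most abundant member in all 6 libraries. Its level was 9057 and 4149 CPM in adult KO, 4263 and 5504 CPM in adult WT, 1196 CPM in e13.5 KO and 977 CPM in e13.5 WT. It ranked between 25 and 34 among the detected miRNAs of the adult libraries and at 68 in e13.5 KO and 60 in e13.5 WT. The adult and e13.5 libraries did not overlap, as for 24.9% of all miRNAs in this direction, and the adult mean was 5.29-fold higher. miR-181b-5p came next in every library, with 1472 and 673 CPM in adult KO, 1002 and 1018 CPM in adult WT, 701 CPM in e13.5 KO and 507 CPM in e13.5 WT. One adult KO library lay below the e13.5 KO library, so the stages overlapped on this scale.

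The pair from chromosome 8 changed places between the stages. miR-181c-5p was at 577 and 539 CPM in adult KO, 229 and 591 CPM in adult WT, 27.3 CPM in e13.5 KO and 25.5 CPM in e13.5 WT. Its lowest adult library was far above both e13.5 libraries, and the adult mean was 18.3-fold higher. Its neighbour miR-181d-5p was at 397 and 272 CPM in adult KO, 217 and 307 CPM in adult WT, 311 CPM in e13.5 KO and 323 CPM in e13.5 WT, so the stages overlapped and the adult mean was 0.941 times that at e13.5. Within each adult library the order was miR-181a-5p, miR-181b-5p, miR-181c-5p and miR-181d-5p, although the ranges of the last 2 overlapped across adult libraries. Within both e13.5 libraries miR-181d-5p followed miR-181b-5p and miR-181c-5p came last, without overlap.

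**Figure D1:**
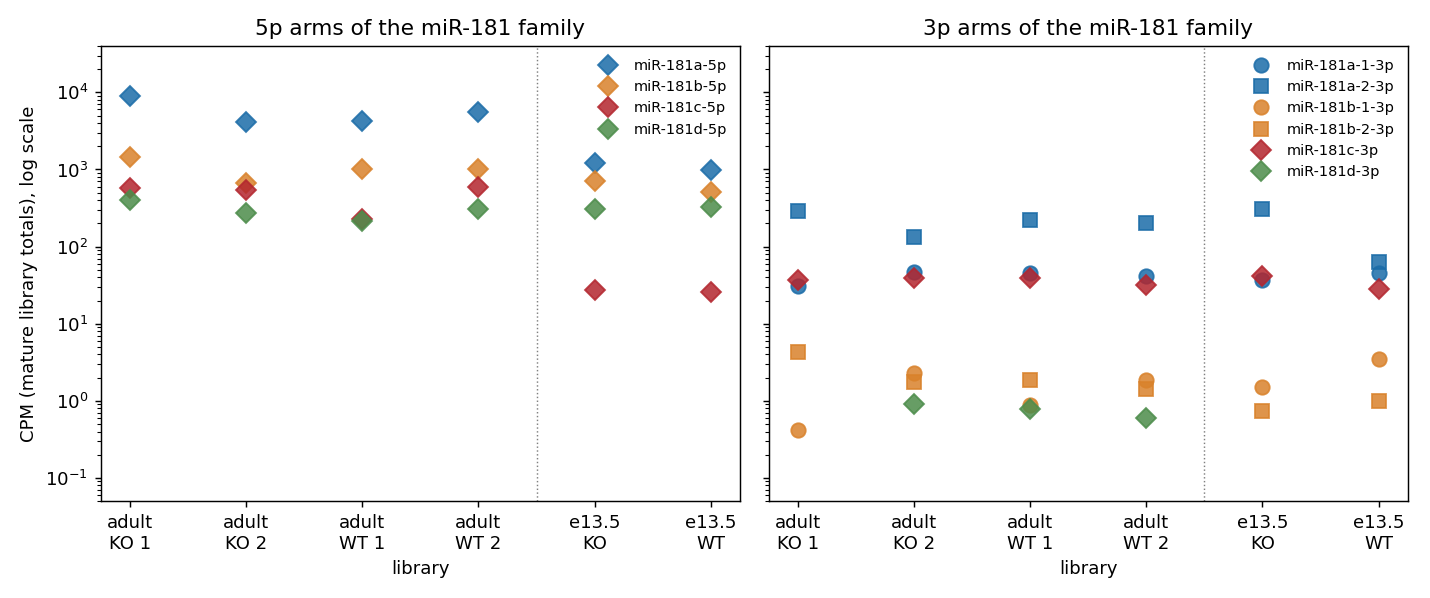
Levels of the 5p arms (left) and 3p arms (right) in each library, in CPM on a log scale. Each symbol is 1 library, and a level of 0 is not drawn. miR-181c-5p lies at 229 to 591 CPM in the adult libraries and at 25.5 to 27.3 CPM in the e13.5 libraries, while miR-181d-5p stays between 217 and 397 CPM.

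The 3p arms summed to less than the 5p arms in every library, and each of them except miR-181b-2-3p overlapped between the stages on this scale. miR-181a-2-3p, the most abundant of them, was at 289 and 131 CPM in adult KO, 224 and 201 CPM in adult WT, 303 CPM in e13.5 KO and 63.2 CPM in e13.5 WT. The e13.5 libraries thus held both its highest and its lowest value. miR-181c-3p was at 37.4 and 39.5 CPM in adult KO, 39.1 and 31.4 CPM in adult WT, 41.9 CPM in e13.5 KO and 28.0 CPM in e13.5 WT, with overlapping stages. miR-181a-1-3p ranged over 31.2 to 46.2 CPM in adult libraries and was at 37.4 CPM in e13.5 KO and 45.8 CPM in e13.5 WT.

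The other 3p arms were rare. miR-181b-1-3p had 6 and 40 counts in adult KO, 16 and 31 in adult WT, 4 in e13.5 KO and 31 in e13.5 WT. miR-181b-2-3p had 62 and 31 counts in adult KO, 33 and 24 in adult WT, 2 in e13.5 KO and 9 in e13.5 WT, and its CPM was higher in each adult library than in either e13.5 library. miR-181d-3p had 0 and 16 counts in adult KO, 14 and 10 in adult WT and 0 in both e13.5 libraries. With a floor of 3 counts over both e13.5 libraries, the limit that a count of 0 allows, its e13.5 level was at least 2.32-fold below the pooled adult level. That bound covers counting error only. Adult KO replicate 1 also had 0 counts, so the stages overlapped and a lower level at e13.5 was not established.

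The stage comparison asked which arms differ between adult and embryonic cells. It used edgeR's quasi-likelihood test with genotype as a term over 679 miRNAs. After TMM scaling, 4 of the 10 arms passed an adjusted p of 0.05, all higher in adults: miR-181a-5p, miR-181b-5p, miR-181c-5p and miR-181a-2-3p. The background was wide, since 57.7% of all miRNAs tested passed and 28.4% of all miRNAs tested were called higher in adults. The 4 of 10 arms are read against that 28.4%, with few arms to tell the shares apart. The median log2 fold (e13.5 over adult) was -1.70 over the arms and -0.06 over all miRNAs. No arm was called higher at e13.5, where 29.3% of all miRNAs were.

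The log2 fold of miR-181c-5p (e13.5 over adult, negative where adults are higher) was -5.24 (SE 0.78, edgeR adjusted p 0.000678), and without the e13.5 KO library it was -4.66 (adjusted p 0.00413). For miR-181a-5p it was -3.40 (SE 0.53, edgeR adjusted p 0.00091), and -2.93 without the e13.5 KO library (adjusted p 0.00679). Both calls held with every scaling and tool tried and without any single library. For miR-181b-5p the log2 fold was -1.82 (SE 0.45, adjusted p 0.00879). Its call was lost without the e13.5 KO library (-1.59, adjusted p 0.0655) and without adult WT replicate 1 (adjusted p 0.0748) or adult WT replicate 2 (adjusted p 0.0901). For miR-181a-2-3p it was -1.57 (SE 0.53, adjusted p 0.0326), and leaving out any library other than e13.5 KO ended that call, with adjusted p of 0.107 to 0.289.

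The scale decides how far the remaining arms moved. With library totals or with median-of-ratios factors, which moved the median of all miRNAs to 0.93 and 0.72 on the log2 scale, only miR-181a-5p and miR-181c-5p were called, where 17.7% and 19.6% of all miRNAs were called higher in adults. Their log2 folds on totals were -2.39 and -4.17. miR-181d-5p had a log2 fold of -0.92 (SE 0.52, adjusted p 0.155) with TMM, which turned to 0.10 on totals. miR-181c-3p had -1.19 (SE 0.53, adjusted p 0.0806) with TMM and -0.10 on totals, and miR-181a-1-3p had -1.08 (SE 0.60, adjusted p 0.151) with TMM and 0.01 on totals. The remaining rare arms did not pass either, with adjusted p of 0.876 for miR-181b-1-3p, 0.0884 for miR-181b-2-3p and 0.104 for miR-181d-3p. DESeq2 called 3 arms and limma-trend 6 arms, all higher in adults, as were 23.1% of all miRNAs with DESeq2 and 33.1% with limma-trend.

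**Figure D2:**
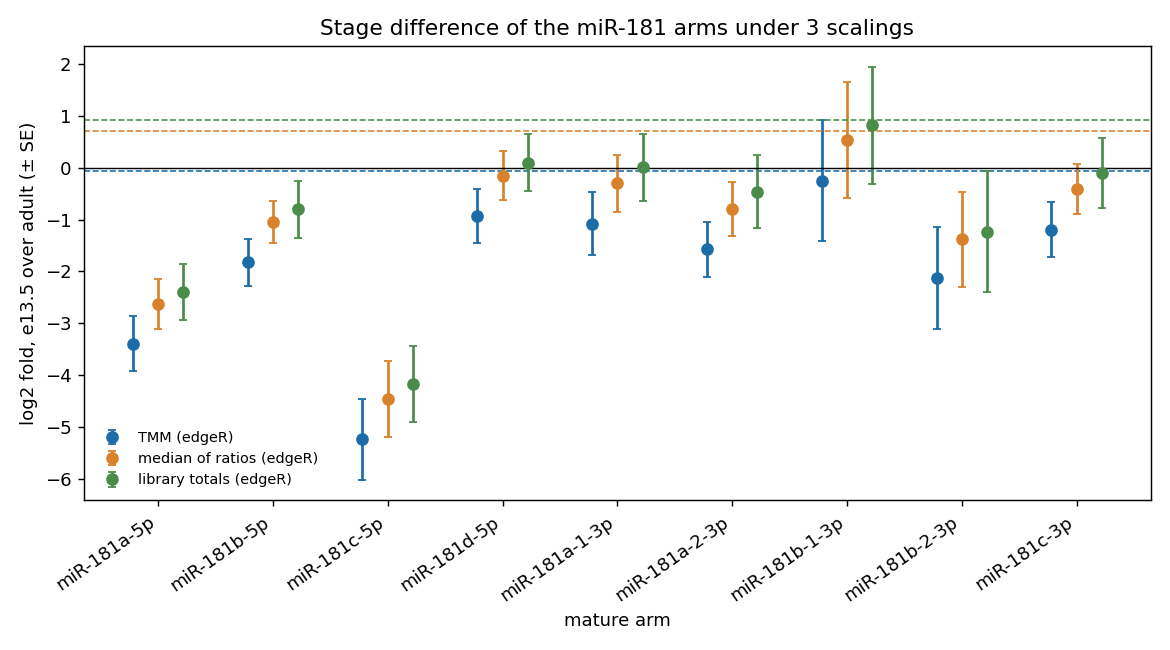
Log2 folds (e13.5 over adult, with SE) of 9 arms under 3 scalings, from edgeR fits over all 6 libraries. Negative values are higher in adults, dashed lines mark the median of all miRNAs under each scaling, and miR-181d-3p is left out because it had 0 counts in both e13.5 libraries. miR-181a-5p and miR-181c-5p stay below -2 under each scaling, while miR-181d-5p and miR-181a-1-3p reach 0.10 and 0.01 on library totals.

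Markers of other cells differed in how they moved with stage. Leukocyte miRNAs (10 rows of miR-142a, miR-146a, miR-150, miR-155 and miR-223) summed to 0.177% to 0.280% of adult counts and to 0.0192% in e13.5 KO and 0.0131% in e13.5 WT. Of their 8 tested arms, 5 were called higher in adults, against 28.4% of all miRNAs tested, and no named marker was at 0. Endothelial miRNAs (4 rows of miR-126a and miR-126b) summed to 1.65% to 3.11% of adult counts, 1.63% in e13.5 KO and 1.90% in e13.5 WT, with 2 of 2 tested arms called higher in adults after TMM scaling, against the same 28.4%. The erythroid list (miR-144, miR-451a and miR-486a) was split, with 2 of 5 tested arms called higher at e13.5 and 2 higher in adults. Of the neural list (13 rows of miR-9, miR-124, miR-128, miR-138 and miR-219a), 7 arms were tested. Among them 0 were called higher at e13.5 and 2 higher in adults, against 29.3% and 28.4% of all miRNAs tested. The part of these markers in the levels of miR-181 was not tested.

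Shares within the family do not depend on library scaling. miR-181a-5p made up 75.3% ± 2.32 of the 5p counts in adults (SD, n = 4) and 53.4% ± 0.125 at e13.5 (SD, n = 2). miR-181c-5p made up 6.64% ± 2.57 in adults and 1.31% ± 0.120 at e13.5. The shares of these 2 arms were higher in each adult library than in either e13.5 library. The reverse held for miR-181b-5p, with 14.0% ± 2.47 in adults and 29.5% ± 2.62 at e13.5, and for miR-181d-5p, with 4.05% ± 0.585 in adults and 15.8% ± 2.63 at e13.5. No exact test on 4 against 2 libraries can fall under a two-sided p of 0.133, so these shares carry no test. The miR-181a-5p to miR-181b-5p ratio was 6.15 and 6.17 in adult KO, 4.26 and 5.41 in adult WT, 1.70 in e13.5 KO and 1.93 in e13.5 WT.

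**Figure D3:**
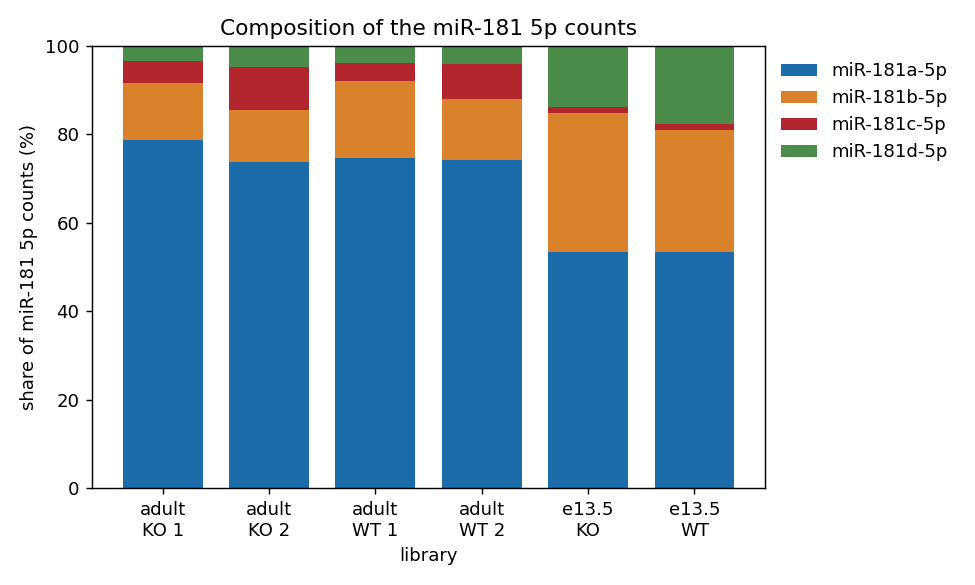
Share of each member in the summed 5p counts of the family, in percent, with 1 bar per library. miR-181a-5p takes 73.7% to 78.7% of the bar in adults and 53.3% to 53.5% at e13.5, and miR-181d-5p takes 3.45% to 4.82% in adults and 13.9% to 17.6% at e13.5.

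The arms of the miR-181c hairpin showed different stage patterns, and the dominant arm changed. The 5p to 3p ratio of counts was 15.4 and 13.7 in adult KO, 5.87 and 18.8 in adult WT, 0.652 in e13.5 KO and 0.912 in e13.5 WT. The 5p arm thus exceeded the 3p arm in all 4 adult libraries, and the 3p arm was the higher count in both e13.5 libraries. As a share of both arms, miR-181c-3p held 5.05% to 14.6% in adult libraries. It held 60.5% in e13.5 KO (Wilson 95% interval 53.4 to 67.3, 185 counts) and 52.3% in e13.5 WT (47.8 to 56.7, 478 counts), so an excess of the 3p arm was not resolved from equality in the WT embryo library. These intervals, like the others given, cover counting error only.

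The difference in the log2 5p to 3p ratio of miR-181c (e13.5 minus adult) was -4.00 (SE 0.86, limma adjusted p 0.00927). Arm ratios changed often between the stages. They were taken per miRNA name with gene copies summed, and such names are called hairpins for these ratios. Of the 239 tested, 41% passed, 16.7% with a ratio lower at e13.5. miR-181c was the only one of the 4 members to pass, and 10 of the 239 hairpins (4.18%) had the same exchange, with 5p the higher count in all 4 adult libraries and 3p in both e13.5 libraries. Without the e13.5 KO library the difference was -3.52 and its adjusted p 0.106, a setting in which 10 of 231 hairpins passed. The call was kept without any other single library.

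For the other members the change was smaller or not measurable. The log2 difference for miR-181a, its 3p arms summed, was -1.98 (SE 0.84, limma adjusted p 0.0897), from ratios of 28.3 and 23.4 in adult KO, 15.8 and 22.6 in adult WT, 3.51 in e13.5 KO and 8.96 in e13.5 WT. The adult and e13.5 ratios did not overlap, which held in this direction for 24.3% of all hairpins. For miR-181b the difference was -0.61 (SE 0.86, adjusted p 0.570), with overlapping stages. For miR-181d it was 1.93 (SE 1.54, adjusted p 0.324) and rested on a 3p arm with 0 counts in 3 libraries.

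Set against miR-181d-5p, which comes from the neighbouring hairpin, the arms of miR-181c parted. miR-181c-5p was 1.45 and 1.98 times miR-181d-5p in adult KO, 1.06 and 1.92 times in adult WT, 0.0878 times in e13.5 KO and 0.0789 times in e13.5 WT, a 19.2-fold higher mean in adults. miR-181c-3p was 0.0943 and 0.145 times miR-181d-5p in adult KO, 0.180 and 0.102 times in adult WT, 0.135 times in e13.5 KO and 0.0865 times in e13.5 WT. The 3p values overlapped between stages, and their adult mean was 1.18-fold higher. Against miR-181a-5p, from which it differs by 1 base, miR-181c-5p also stood apart by stage, at 0.0637 and 0.130 times in adult KO, 0.0538 and 0.107 times in adult WT, 0.0228 times in e13.5 KO and 0.0261 times in e13.5 WT.

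**Figure D4:**
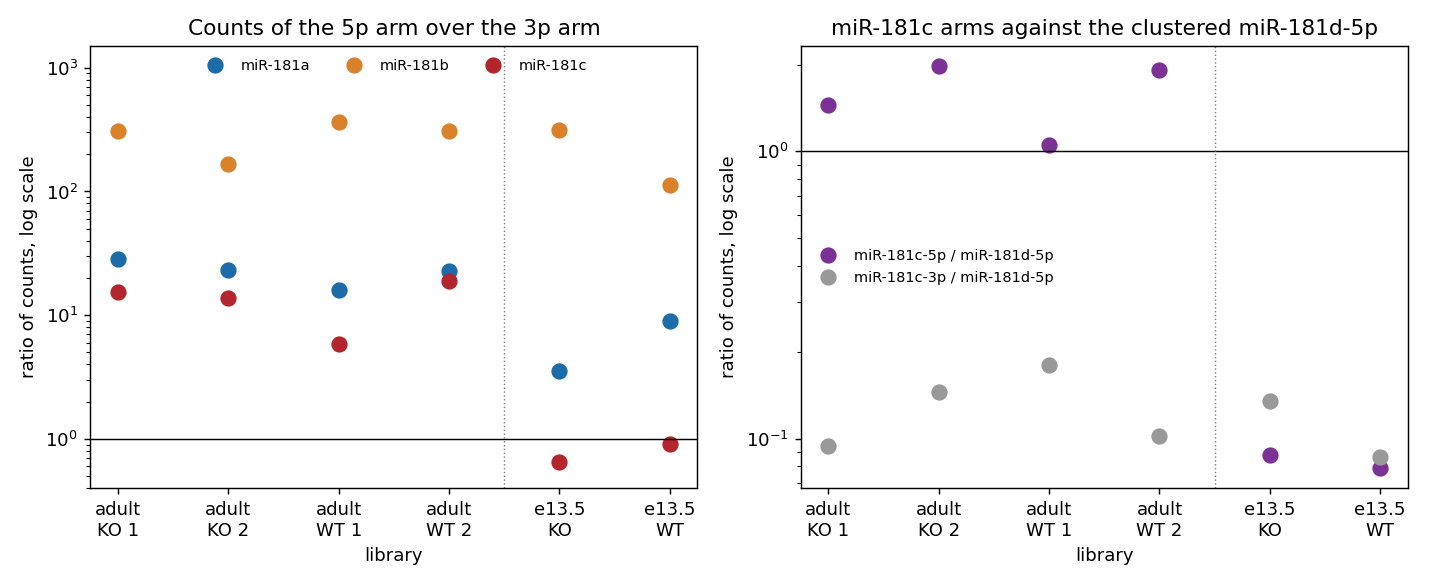
Ratios of counts in each library on log axes: 5p over 3p for miR-181a, miR-181b and miR-181c (left), and both arms of miR-181c over miR-181d-5p (right). The line marks equal counts. The miR-181c ratio is 5.87 to 18.8 in adults and 0.652 to 0.912 at e13.5, and against miR-181d-5p its 5p arm drops at e13.5 while its 3p arm overlaps between stages.

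Only the 3p arms differ between the gene copies, by an edit distance of 2 bases for miR-181a and 2 bases for miR-181b. The splits below therefore also depend on how reads that match near copies were assigned, which is not known. miR-181a-2-3p, from chromosome 2, made up 90.3% and 74.0% of the miR-181a 3p counts in adult KO, 83.1% and 82.7% in adult WT, 89.0% in e13.5 KO and 57.9% in e13.5 WT. The e13.5 WT library had the lowest share (exact 95% interval 54.8 to 61.1) and the e13.5 KO library lay within the adult range. For miR-181b the 3p counts were too few to give a firm split, since they summed to 49 to 71 in adult libraries, 6 in e13.5 KO and 40 in e13.5 WT. The copy on chromosome 2 held 22.5% of them in e13.5 WT (exact 95% interval 10.8 to 38.5) and 43.6% to 91.2% in adult libraries.

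The mir-181b-2 hairpin differed from its relatives in having many counts not accounted for by its named arms. Its sequence (RefSeq, GRCm38.p6, chr2:38853830-38853918, plus strand) is shown with both arms in capitals, which leaves 43 bases outside them in separate stretches.
mir-181b-2: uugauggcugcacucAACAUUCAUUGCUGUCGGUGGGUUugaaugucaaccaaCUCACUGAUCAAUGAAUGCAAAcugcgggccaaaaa
Counts of this hairpin not accounted for by miR-181b-5p and miR-181b-2-3p made up 6.68% and 4.85% of it in adult KO, 7.07% and 4.24% in adult WT, 19.6% in e13.5 KO and 16.1% in e13.5 WT. Both e13.5 shares were above all adult shares, an order whose frequency among all hairpins was not measured. At 457 counts in e13.5 KO and 871 in e13.5 WT, these reads outnumbered the 2 and 9 counts of the named 3p arm. Of 270 hairpins with at least 1000 counts, 15 (5.56%) had over 4% of counts not accounted for by their arms in every library. That cut lies just under the lowest share of mir-181b-2, 4.24% in adult WT. The other 5 hairpins of the family differed from their arms by at most 25 counts. The counts give no read positions, so it is not known where in the hairpin these reads lie. Whether they overlap a named arm or reflect how reads were assigned is not known either.

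**Figure D5:**
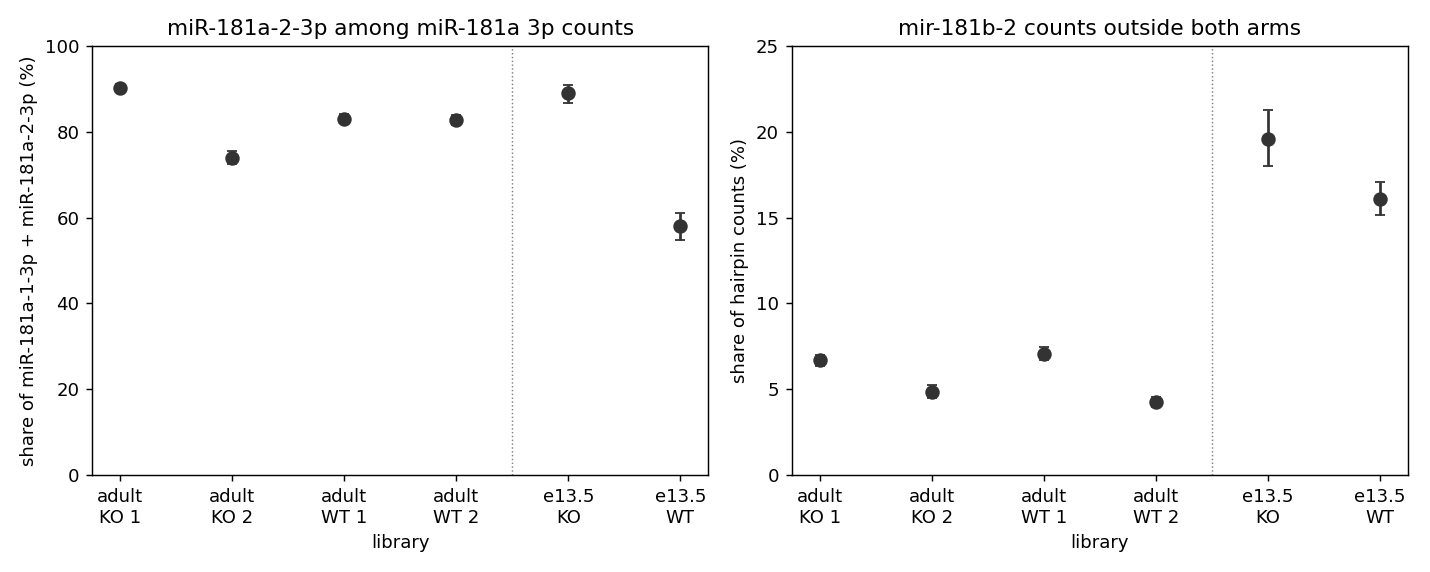
Left, share of miR-181a-2-3p in the summed miR-181a 3p counts, with exact 95% intervals. Right, share of mir-181b-2 hairpin counts not accounted for by its named arms, with Wilson 95% intervals. Each point is 1 library. The e13.5 WT library is lowest on the left at 57.9%, and both e13.5 libraries are highest on the right at 19.6% and 16.1%.

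The genotype comparison asked whether the miRNAs of cardiomyocytes differ when lncSync is missing. In adult cells no miR-181 arm differed detectably between KO and WT. None of the 10 arms passed among 544 miRNAs tested in the 4 adult libraries with edgeR's quasi-likelihood test, 0 of them had an unadjusted p under 0.05, and 0.735% of all miRNAs passed. DESeq2 and limma-trend called 0 arms too. The log2 fold (KO over WT) was 0.54 for miR-181a-5p (SE 0.44), 0.21 for miR-181b-5p (SE 0.42), 0.64 for miR-181c-5p (SE 0.60) and 0.53 for miR-181d-5p (SE 0.45), with an edgeR adjusted p of 0.999 each. For miR-181c-5p the fold was 0.03 without adult WT replicate 1 and 1.54 without adult WT replicate 2. Without adult KO replicate 1 miR-181c-5p reached an unadjusted p of 0.00951 (adjusted 0.137), and without adult KO replicate 2 miR-181a-5p reached an unadjusted p of 0.0351 (adjusted 0.188), from the same edgeR test. A p that misses the threshold does not show that KO and WT were alike. The 3p arms had log2 folds of -0.02 to 1.01.

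How the adult libraries order depends on the scale. On library totals the genotypes overlapped for all 4 of the 5p arms, with 9057 and 4149 CPM in KO and 4263 and 5504 CPM in WT for miR-181a-5p. With TMM factors over the 6 libraries miR-181a-5p had 9419 and 7312 CPM in KO and 4724 and 7287 CPM in WT, and miR-181d-5p had 413 and 479 CPM in KO and 241 and 407 CPM in WT. Both KO libraries lay above both WT libraries for these 2 arms on that scale, by a narrow margin. The same held for miR-181b-2-3p, so for 3 of the 10 arms in all, against 8.09% of all miRNAs tested. miR-181b-5p and miR-181c-5p overlapped on either scale. After TMM scaling 9 of the 10 arms had a positive fold, with a median of 0.42 against 0.08 over all miRNAs. On library totals 6 arms were positive, with a median of 0.11 against -0.12. The share of all miRNAs with a positive fold was not counted, and arms of near copies are not independent. The adult KO libraries also differed in erythroid miRNAs (5 rows of miR-144, miR-451a and miR-486a), at 2.23% and 0.565% of counts, with 1.57% and 1.04% in adult WT. The part of such markers in the KO values was not tested. Of the 200 arm ratios tested in adults with limma, 0.5% passed and 0 of the 4 miR-181 ratios did, with 0 at an unadjusted p under 0.05.

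Over both stages together, KO against WT with stage as a term gave 0 of 10 arms past the threshold in edgeR, 0 at an unadjusted p under 0.05, with 0.736% of 679 miRNAs called. The log2 folds (KO over WT) of the 5p arms were 0.15 for miR-181a-5p, -0.01 for miR-181b-5p, 0.17 for miR-181c-5p and 0.03 for miR-181d-5p. The test of whether the KO difference itself differed between e13.5 and adults called 0 of 769 miRNAs in edgeR (0%), with 46 at an unadjusted p under 0.05 but 0 of the arms. DESeq2 called 4 miRNAs and limma-trend 0, none of them miR-181.

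At e13.5 each genotype had 1 library, so the values have no replicate check and no test. Among the 565 miRNAs that reached 10 counts in one library or the other, 22.3% were at least 2-fold higher in KO and 23.5% at least 2-fold lower after TMM scaling. Among the 8 arms with that many counts, miR-181a-2-3p was the only one at least 2-fold higher in KO, with 810 counts in KO and 565 in the deeper WT library, a CPM ratio of 4.80 (95% counting interval 4.30 to 5.35) and a log2 fold of 1.77 after TMM scaling. miR-181b-1-3p was at least 2-fold lower, on 4 counts in KO and 31 in WT, with a CPM ratio of 0.432 and an interval of 0.111 to 1.22 that includes equality.

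The guide arms at e13.5 differed less between genotypes. The CPM ratio (KO over WT) was 1.22 for miR-181a-5p (counting interval 1.18 to 1.28), 1.38 for miR-181b-5p (1.31 to 1.46), 1.07 for miR-181c-5p (0.812 to 1.40) and 0.963 for miR-181d-5p (0.890 to 1.04). After TMM scaling the log2 folds were -0.19, -0.02, -0.38 and -0.54 in that order, so the sign of the first 3 turns with the scaling. The miR-181a-5p to miR-181a-2-3p ratio, which no scaling affects, was 3.94 in e13.5 KO and 15.5 in e13.5 WT, with 19.1 to 31.6 in adult libraries. Erythroid miRNAs took 1.43% of counts in e13.5 KO and 0.0748% in e13.5 WT, and their part in this difference was not tested.

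The miRNAs most like miR-181a-5p and miR-181c-5p across the 6 libraries were not other members of the family. Likeness was measured as the root mean square difference in centred log2 TMM-scaled CPM over the 6 libraries, among 168 miRNAs with a mean of at least 100 CPM. Nearest to miR-181a-5p were miR-30e-3p (0.248), miR-378d (0.252), miR-186-5p (0.266), miR-378c (0.308) and miR-30a-3p (0.317). Of the other 5p arms of the family, miR-181b-5p would have ranked at 30 (0.770), miR-181c-5p at 43 (0.931) and miR-181d-5p at 66 (1.17). Nearest to miR-181c-5p were miR-24-3p (0.394), miR-27a-3p (0.450), miR-26b-5p (0.540), miR-3968 (0.582) and miR-16-5p (0.588), and here miR-181a-5p would have ranked at 24 (0.931), miR-181b-5p at 63 (1.67) and its cluster neighbour miR-181d-5p at 85 (2.01). All 10 nearest miRNAs were called higher in adults, and the measure includes that stage difference.

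Other miRNAs reported to act on mitochondrial genes or mitochondrial form in heart or muscle were taken as a list (20 rows of miR-1a, miR-21a, miR-30a, miR-30b, miR-92a, miR-210, miR-338, miR-378a and miR-499), of which miR-1a and miR-499 are also cardiac markers. Of 18 tested between stages after TMM scaling, 11 were called higher in adults and 1 higher at e13.5, against 28.4% and 29.3% of all miRNAs tested. The median log2 fold (e13.5 over adult) was -2.07 against -0.06 over all miRNAs tested. The summed share of the list did not follow these calls. It was 21.9% and 37.8% of counts in adult KO, 26.1% and 25.9% in adult WT, 34.9% in e13.5 KO and 34.4% in e13.5 WT. The abundant miR-1a-3p was not among the calls (edgeR adjusted p 0.106).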

How the data were processed

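Small RNA libraries were built from total RNA with the NEXTFLEX Small RNA kit, per the labels' protocols. The deposited table holds whole-number read counts per miRNA and hairpin, not normalised, with 1 column per library. The submitters' processing notes name the build mm10. The aligner and the counter were not given in the sources used here, nor was the treatment of reads with several matches. The members and lists were chosen with earlier results of these data known. Mature counts were used, and 22 rows that matched another row within 1% of their total (at least 20 counts, 3 libraries) were merged, none of them a member, which left 1952. Counts were tested with edgeR 4.0.16 in R 4.3.3 (quasi-likelihood, two-sided, TMM, filterByExpr at a minimum of 10 counts, Benjamini-Hochberg over all miRNAs, threshold 0.05). SE is the log2 fold divided by the square root of F. Stage and genotype over both stages came from 1 additive fit on 6 libraries, the adult genotype from the 4 adult libraries, and the interaction from 4 group means, which assumes that the lone e13.5 libraries vary like the adult ones. The log2 ratio of 5p to 3p counts, each plus 0.5, was tested with limma 3.58.1 for miRNA names with at least 20 counts per arm, gene copies summed. The ratios used the rows before merging, so names with the same reads, such as miR-299a and miR-299b, were tested separately. At e13.5, log2 folds used a prior count of 2. All members are named, and for 2 of them the 5 nearest non-member miRNAs. The fits were tested on simulated data. DESeq2 1.42.0, limma-trend, other scalings, no filter, hairpin rows, unmerged rows (chosen after seeing the data) and fits without each library were alternatives. A floor of 3 counts was worth 0.167 to 0.209 CPM in adult libraries, 1.12 CPM in e13.5 KO and 0.335 CPM in e13.5 WT. Sequences and coordinates are from RefSeq and the annotation of GRCm38.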

Additional observations from a re-analysis of the deposited data

Results flagged for a closer look

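In the 4 adult libraries 1 log2 5p to 3p ratio of miR-181d stood apart from the other 3 (gap over range 0.839), that of adult KO replicate 1, which had 0 counts of miR-181d-3p. Chance alone would flag about 1 in 20 such groups, and 22 were examined. For 4 ratios the KO minus WT difference at e13.5 ran opposite to that in adults, where both KO libraries lay on one side of both WT libraries. These opposite directions were not tested, as e13.5 had 1 library per genotype. No exact permutation test on 2 against 2 adult libraries can fall under a two-sided p of 0.333. The share of all arm ratios that meet this rule was not measured. The first and second ratios below are nearly the same, as miR-181a-2-3p made up most of the summed miR-181a 3p counts. The log2 difference at e13.5 was -1.35 for miR-181a 5p over its summed 3p arms, whose adult ratios were 28.3 and 23.4 in KO and 15.8 and 22.6 in WT. It was -1.97 for miR-181a-5p over miR-181a-2-3p, with adult ratios of 31.3 and 31.6 in KO and 19.1 and 27.3 in WT. It was 0.65 for miR-181b-5p over miR-181b-2-3p, on 2 counts of the 3p arm in e13.5 KO and 9 in e13.5 WT. It was -0.18 for miR-181a-5p over miR-181b-5p, with adult ratios of 6.15 and 6.17 in KO and 4.26 and 5.41 in WT.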

How the results depend on the processing

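The stage calls of miR-181a-5p and miR-181c-5p, and the absence of a genotype call for any arm, held under each setting in which they were fitted. The number of arms called by stage was 2 with median-of-ratios factors, 2 on library totals, 2 in the KO libraries alone and 2 to 4 without single libraries. Calls over all miRNAs by stage numbered 231 in the KO libraries alone and 261 to 381 without single libraries. Adult genotype calls numbered 9 without a filter and 5 to 47 without single libraries, 35 without KO replicate 1 and 47 without KO replicate 2. Genotype calls over both stages numbered 3 with hairpin rows and 3 to 5 without single libraries. Interaction calls numbered 1 on totals, 2 without a filter, 4 with DESeq2 and 0 to 87 without single adult libraries, 87 without KO replicate 1 and 40 without KO replicate 2, and it could not be fitted without an e13.5 library. Stage arm ratio calls numbered 10 to 110 without single libraries. Of the miR-181 ratios, 2 passed with a pseudocount of 5, where miR-181a did too (adjusted p 0.0237), and 0 to 2 without single libraries, miR-181d joining without adult KO replicate 1. Adult arm ratio calls numbered 0 with a minimum of 5 per arm and 0 to 10 without single libraries, of which 0 to 1 were miR-181 ratios (miR-181d, without KO replicate 2). With the replicate block 0 adult arm ratios and 5 adult miRNAs were called, none of them miR-181. Deviations of adult libraries with the same number correlated at 0.0091 over 544 miRNAs. With 2 libraries per adult genotype, that value cannot settle whether the numbers pair the libraries. The median e13.5 log2 fold (KO over WT) over the measured arms was -0.29 with TMM and 0.20 on totals. The mean e13.5 share of miR-181c was 2.68% over all arms and 2.72% on hairpin rows, which add its 3p reads. The cause of the other changes was not tested. Depth limits the miR-181b and miR-181d 3p arms, and the lone e13.5 libraries limit every genotype value at that stage.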
